A study of Mus musculus with 2 samples.

Results

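Ribosomal protein genes encode the proteins of both ribosomes of a mouse cell: the cytosolic ribosome, which translates nuclear messages, and the mitochondrial ribosome, which translates the few messages of mitochondrial DNA. They were taken by symbol. Names beginning with Rpl or Rps and a number, together with Rplp0 to Rplp2 and Rpsa, made the cytosolic class, and names beginning with Mrpl or Mrps and a number made the mitochondrial class. This gave 138 of the 22180 genes that had at least 1 probe set carrying no other symbol, 67 cytosolic and 71 mitochondrial. A gene with several such probe sets was represented by the brightest.

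Cytosolic ribosomal proteins are made in large and matched amounts, and their messages are known for a pyrimidine tract at the start (the 5′ terminal oligopyrimidine, or TOP, tract), through which the kinase mTOR controls their translation. Mitochondrial ribosomal proteins are encoded in the nucleus, made in the cytosol and imported. The mitochondrial ribosome makes core subunits of the respiratory chain, which are joined by nuclear-encoded subunits.

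The RNA came from inflammatory monocytes of the colon lamina propria of C57BL/6 mice, with 1 array for wild-type (WT) mice and 1 for Nlrp6-/- mice, whose missing gene encodes an innate immune sensor. Both groups received the carcinogen azoxymethane at 10 mg/kg and then, from day 5, 2% dextran sodium sulfate for 5 days, and cells were sorted on day 10 as CD11b+ Ly6C-hi CD3- Ly6G-. The age and number of mice, how the Nlrp6 allele was made and whether the groups were littermates are not given in the labels. With 1 array a genotype there is no replicate error, no test and no p-value. Each difference below is Nlrp6-/- minus WT on the log2 scale and describes these arrays.

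A level counted as detected above a floor of 3.26 in WT and 3.22 in Nlrp6-/-, under which 95% of the olfactory and vomeronasal receptor probe sets fell. Differences of the receptor genes had an SD of 0.19. Nlrp6 had levels of 2.32 (WT) and 2.67 (Nlrp6-/-), under both floors, so it gave no check of the labels. All 13 measured monocyte markers were above the floor, among them Ly6c2, the sorted antigen, at 9.06 in WT and 9.36 in Nlrp6-/-. Markers of other cells were present too: Cd3e, a T cell marker, was at 4.21 and 3.98, and Ly6g, the neutrophil antigen, at 3.32 and 3.58. Cd3e and Ly6g belong to antigens that the sort excluded and do not stand for their lists. Of all genes above the floor on either array, 51.6% were higher in Nlrp6-/-. Of the T and NK markers above it, 6 of 9 (66.7%) were, and of the neutrophil markers 6 of 8 (75%). On both arrays the floor was passed by 7 and 6 of these markers. The others passed it in Nlrp6-/- alone and so had to be higher there.

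The mitochondrial class was higher in Nlrp6-/- and the cytosolic class was close to equal. Over the 64 mitochondrial members that passed the floor on either array, called measured below, the median difference was 0.32, and over the 56 such cytosolic members it was 0.04, against 0.01 over all 9536 genes above the floor. The mitochondrial median exceeded the cytosolic by 0.28. Of the 64, 60 passed the floor on both arrays, and with the others at their bound (the detected level against the floor of the other array) the mitochondrial median was 0.29. By any amount, 57 of the 64 mitochondrial and 36 of the 56 cytosolic members were higher in Nlrp6-/-, where 51.6% of all genes were. At least 1.5-fold higher were 12 mitochondrial members, or 18.8%, and 1 cytosolic member, or 1.79%, against 6.21% of all genes. None of either class was 1.5-fold lower, as 3.05% of all genes were. At least 2-fold higher were 2 mitochondrial and 0 cytosolic members, against 1.61% of all genes, and none was 2-fold lower, against 0.325%.

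**Figure D1:**
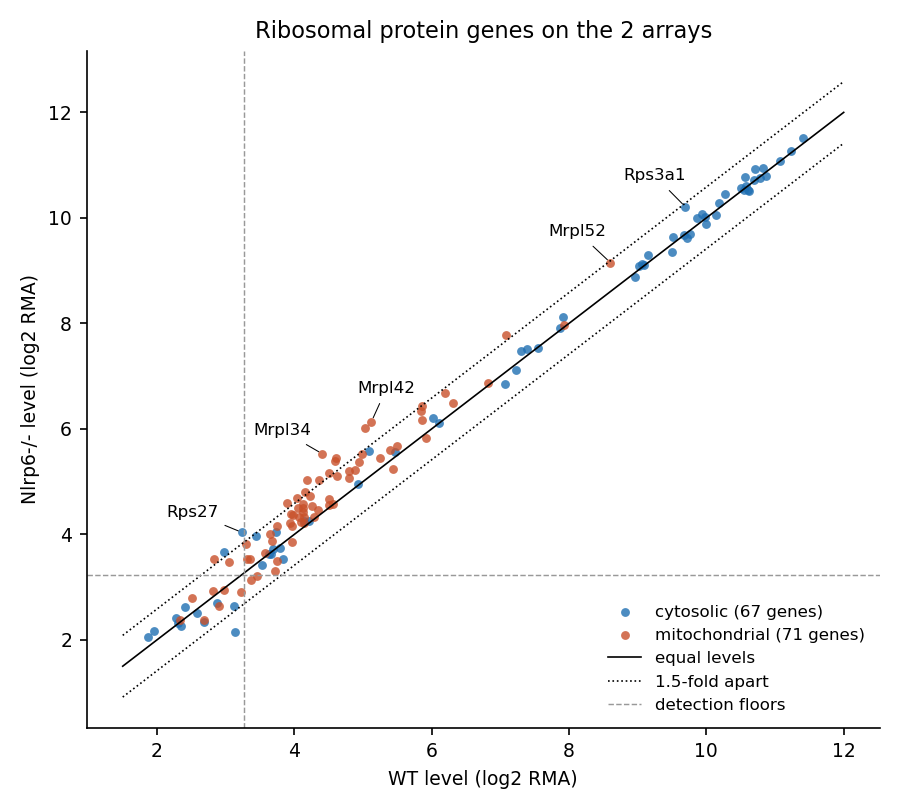
Level of each ribosomal protein gene in WT (horizontal axis) and Nlrp6-/- (vertical axis), both log2 RMA, 1 point per gene, with lines for equal levels, for 1.5-fold and for the detection floors. The mitochondrial points lie mostly above the line of equal levels, and the cytosolic points lie along it. Over the genes above the floor on either array, the median differences were 0.32 and 0.04.

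Sequences at the start sites are shown first, since the TOP tract is the known feature of the cytosolic class. RefSeq promoters of mouse build GRCm38.p6 (250 bases before to 50 after each annotated start) matched 52 of the 67 cytosolic and 62 of the 71 mitochondrial members. A run of C followed by at least 4 C or T, beginning within 5 bases of the start, was in 39.3% of 61 cytosolic promoters, 23.5% of 68 mitochondrial promoters and 18.3% of all 32851 promoters. Among promoters of genes above the floor the share was 20.0%. The 6 brightest cytosolic members above both floors with 1 RefSeq start on an allowed chromosome are shown from 20 bases before the start to 10 bases after it, to show how the tract sits at the start. Capitals mark a run that begins within 5 bases of the start. Runs that begin farther off, as in the Rpl13 line, were not counted and stay in lower case.
Rpl41 (chr10:128549159-128549188, minus strand): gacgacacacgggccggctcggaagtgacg
Rpl28 (chr7:4792945-4792974, plus strand): tcgtcccgcctctcgtgtCTCTCTTTCCgt
Rps18 (chr17:33955656-33955685, minus strand): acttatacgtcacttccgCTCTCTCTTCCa
Rps12 (chr10:23787200-23787229, minus strand): ttaaataccgtcatgcggccaccgccggcc
Rps9 (chr7:3704021-3704050, plus strand): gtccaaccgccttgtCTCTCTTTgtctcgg
Rpl13 (chr8:123102330-123102359, plus strand): gtcacttccctttcgcctgattttgattgg

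Beginning within 5 bases of the start, 3 of 6 cytosolic genes held the run. The count depends on where RefSeq places the start, and a missing match says only that no run begins that near to it.

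Of the 6 mitochondrial members with the highest differences and 1 RefSeq start, only Mrpl42 held a run, of the shortest length counted. The 3 with the highest differences are shown in the same window for contrast.
Mrpl34 (chr8:71464906-71464935, plus strand): aacaagaactacatttcccagaaggcattg
Mrpl42 (chr10:95501940-95501969, minus strand): cgcgtatagcgcgcgctggacggcgCCTTT
Mrpl47 (chr3:32736746-32736775, minus strand): tcgtggacaccgacactgtgggtctccatt

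Words of transcription factors were searched on both strands of the whole promoter. The ETS word CCGGAAG, bound by GABP among others, was in 33.8% of mitochondrial and 37.7% of cytosolic promoters, against 17.4% of promoters of genes above the floor and 8.86% of all. The word of NRF1 (nuclear respiratory factor 1), GCGCNTGCG, was in 22.1% of mitochondrial and 13.1% of cytosolic promoters, against 12.9% and 6.31%. AAGATGGCG, a YY1 word, was in 11.8% of mitochondrial and 3.28% of cytosolic promoters, against 3.10% and 1.40%. CACGTG, the E-box bound by MYC, was in 10.3% and 9.84%, against 9.95% and 7.15%, and TATAAA in 7.35% and 9.84%, against 8.12% and 13.6%. The NRF1 word can overlap its own reverse complement, and the YY1 word can share AAG with the ETS word. A match is a description of the letters, not a binding site.

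Presence of a word was set beside the differences. The 20 mitochondrial members above the floor with the ETS word in a promoter had a median difference of 0.38, and the 36 without it 0.27. By count the order was the other way, with 16 of the 20 higher and 3 at least 1.5-fold higher, against 34 and 9 of the 36. For the NRF1 word the medians were 0.19 over 15 members with it and 0.37 over 41 without it. For the YY1 word they were 0.49 over 7 members and 0.27 over 49, and for the E-box 0.43 over 5 and 0.27 over 51, as for TATAAA with 0.44 over 5 and 0.27 over 51. These groups overlap and were not tested. The highest 4 mitochondrial members above both floors with 1 RefSeq start and either word in the last 100 bases before the start are shown, with the words of ETS and NRF1 in capitals.
Mrpl34 (chr8:71464826-71464925, plus strand): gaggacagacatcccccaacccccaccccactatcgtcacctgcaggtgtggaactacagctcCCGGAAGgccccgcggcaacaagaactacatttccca
Mrpl32 (chr13:14613038-14613137, minus strand): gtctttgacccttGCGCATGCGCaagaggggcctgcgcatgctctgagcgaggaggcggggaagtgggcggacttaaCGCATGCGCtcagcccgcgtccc
Mrpl52 (chr14:54426809-54426908, plus strand): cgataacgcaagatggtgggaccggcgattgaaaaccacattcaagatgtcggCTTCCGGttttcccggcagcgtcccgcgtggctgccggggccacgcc
Mrpl57 (chr14:57826139-57826238, plus strand): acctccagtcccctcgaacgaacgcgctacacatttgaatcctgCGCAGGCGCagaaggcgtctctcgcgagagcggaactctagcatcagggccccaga

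Among mitochondrial members with an L in the symbol the median difference was greater than among those with an S. The 41 large-subunit members above the floor had a median of 0.37, with 38 higher and 9 at least 1.5-fold higher. The 23 small-subunit members had a median of 0.20, with 19 higher and 3 at least 1.5-fold higher. Subunits were read from the S or L of the symbol. Mrps30 thus counted as small, though structures of the human ribosome place it in the large subunit. With a floor that 99% of the receptors did not reach, the medians were 0.47 (small) and 0.49 (large). No test of the gap between the subunits was possible.

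Mrpl34, a large-subunit protein, was at 4.41 in WT and 5.53 in Nlrp6-/-. That is the largest difference of either class, 1.12 or 2.18-fold. Mrpl42 was at 5.12 in WT and 6.14 in Nlrp6-/- (1.02, or 2.02-fold). These are the members that reached 2-fold, both from the large subunit and each with 1 probe set.

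Mrpl47 was at 5.03 in WT and 6.02 in Nlrp6-/-, which differ by 0.99 on the brighter of its probe sets. Its other probe set had levels of 3.24 in WT and 3.42 in Nlrp6-/-, and a probe set shared with Actl6a differed by -0.12. The call of Mrpl47 therefore rests on 1 of 3 probe sets.

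Mrpl50 was at 4.19 in WT and 5.03 in Nlrp6-/- (0.84). Mrpl32, which in mouse is matured inside mitochondria by the m-AAA protease before it joins the ribosome, was at 4.60 and 5.45, also 0.84 apart. Mrpl35 was at 4.58 and 5.39, a difference of 0.81. All 3 genes encode large-subunit proteins.

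Mrpl20 was at 3.89 in WT and 4.59 in Nlrp6-/- (0.70). Mrpl23 was at 4.51 and 5.16 (0.65). Mrpl10, which anchors the stalk formed with Mrpl12, was at 4.15 and 4.79 (0.64), but its dimmer probe set was at 3.41 and 3.28, in the opposite direction. Mrpl12 itself was at 4.50 in WT and 4.68 in Nlrp6-/- (0.18).

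Of the small subunit, Mrps16, a conserved core protein whose loss in humans causes a respiratory chain defect, was at 7.08 in WT and 7.77 in Nlrp6-/-. Both of its probe sets were higher, by 0.70 and 0.76. Mrps24 was at 4.35 and 5.04 (0.68), and Mrps23 at 4.04 and 4.69 (0.65). With these, 12 members were at least 1.5-fold higher.

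Just under that threshold, which is 0.58 on the log2 scale, was Mrps17 at 5.86 in WT and 6.43 in Nlrp6-/- (0.57). The brightest mitochondrial member, Mrpl52, was at 8.60 and 9.15 (0.55). Mrpl22 was below the floor in WT, at 2.83, and at 3.53 in Nlrp6-/-, so its measured difference of 0.70 is a bound of 0.27. Mrps18c was likewise seen in Nlrp6-/- alone, at 3.05 in WT and 3.48 in Nlrp6-/-.

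The brightest members after Mrpl52 differed among themselves. Mrpl39 had levels of 7.93 in WT and 7.97 in Nlrp6-/-, and Mrpl24 was at 6.82 and 6.87. Mrpl54 was at 6.20 and 6.69 (0.49). All 9 mitochondrial members with a mean level above 6 were higher in Nlrp6-/-, and their median difference was 0.49.

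Members with particular roles lay along this range. Mrpl58, a hydrolase that frees stalled mitochondrial ribosomes, was at 3.64 in WT and 4.01 in Nlrp6-/- (0.37). Mrpl18, tied to import of 5S RNA in human cells, was at 5.39 and 5.61 (0.22). The paralogues Mrps18b and Mrps18a were at 5.49 and 5.91 in WT and at 5.67 and 5.83 in Nlrp6-/-, one slightly higher and the other slightly lower. Mrps30, placed in the large subunit in structures of the human ribosome, was at 4.15 and 4.21.

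Lower in Nlrp6-/- were 7 of the 64 mitochondrial members, none by 1.5-fold. Mrpl40 was at 3.72 in WT and 3.31 in Nlrp6-/- (-0.42), the lowest of the class above the floor. Mrpl9 was at 3.75 and 3.50 (-0.26), Mrps26 at 3.46 and 3.21, and Mrps12, a protein of the decoding centre, at 3.37 and 3.13. Mrps26 and Mrps12 were below the floor in Nlrp6-/-, so their differences are bounds, of -0.24 and -0.15. Mrpl17 was at 5.44 and 5.23 (-0.21). Apart from Mrpl17 and Mrps18a, which was at 5.91 and 5.83, the lower members were all dim.

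Below the floor on both arrays were 7 mitochondrial members: Mrps36, Mrpl27, Mrps27, Mrps5, Mrps35, Mrpl51 and Mrps14. Mrps36, the dimmest at 2.33 in WT and 2.38 in Nlrp6-/-, is known to serve the 2-oxoglutarate dehydrogenase complex despite its symbol. Mrpl27 was at 2.68 and 2.37, and Mrps27 at 2.51 and 2.79. The other members of the class, neither named above nor below the floors, differed by less than 1.5-fold.

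**Figure D2:**
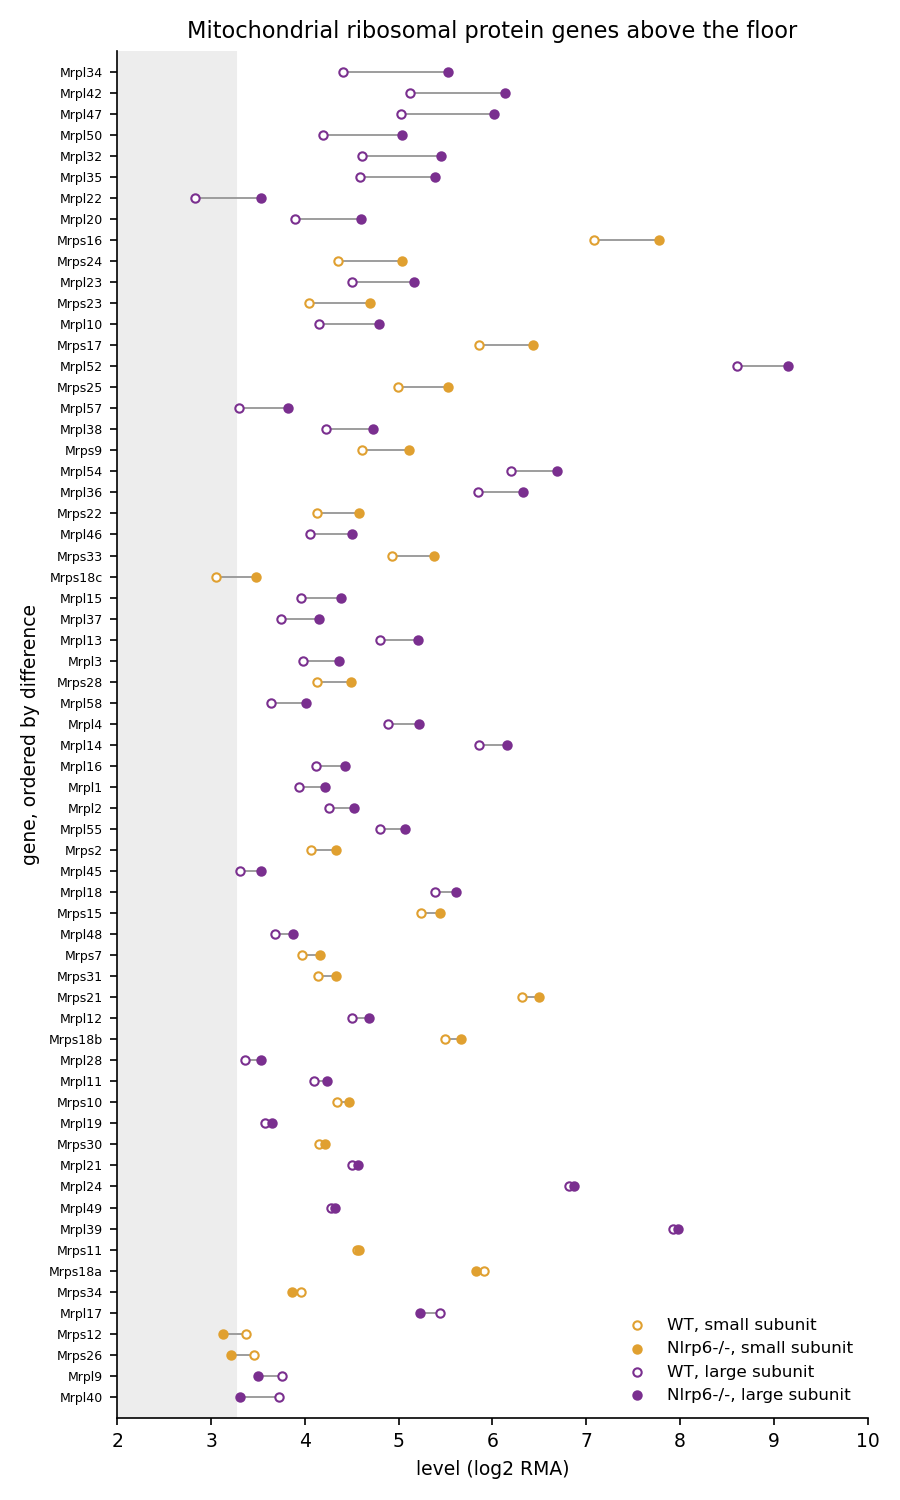
Levels (log2 RMA) of the 64 measured mitochondrial ribosomal protein genes, WT as open and Nlrp6-/- as filled circles, coloured by subunit and ordered by difference; the grey band lies below the WT floor of 3.26. The filled circle lies to the right of the open one for 57 genes, and the widest gaps, Mrpl34 and Mrpl42, are in the large subunit.

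Cytosolic members were nearly equal on the arrays. Above the floor, their median level was 9.12 in WT and 9.20 in Nlrp6-/-, where that of the mitochondrial class was 4.27 and 4.64. Across genes, levels on the arrays correlated with r = 0.997 over the 56 cytosolic and 0.962 over the 64 mitochondrial members, and members are no independent replicates. The 22 small-subunit and 34 large-subunit cytosolic members each had a median difference of 0.04.

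The 5 brightest cytosolic members were Rpl41, Rplp1, Rpl28, Rps18 and Rpl19. Rpl41, the smallest ribosomal protein, was at 11.40 in WT and 11.52 in Nlrp6-/-. Rplp1, an acidic protein of the stalk, was at 11.23 and 11.27, Rpl28 at 11.08 and 11.07, Rps18 at 10.82 and 10.95, and Rpl19 at 10.87 and 10.80. The highest level of any probe set on the arrays was 12.3, so these lie near the top of the scale.

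Rplp0, the base of the stalk, was at 7.07 in WT and 6.86 in Nlrp6-/- (-0.21), the lowest difference of a bright cytosolic member. Its other probe set went the other way, at 3.53 and 4.16. Rpsa, also known as a laminin receptor, was at 9.50 and 9.35 (-0.15). Rps6, the substrate of S6 kinase, was at 10.62 and 10.50 (-0.12), and Rpl3 at 7.22 and 7.11. A dimmer probe set of Rpl3 was at 6.06 and 5.62 (-0.44), and its dimmest was below both floors.

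Rpl11, which with Rpl5 and the 5S RNA restrains MDM2, was at 3.84 in WT and 3.53 in Nlrp6-/- (-0.31), the lowest cytosolic member above the floor. Rpl5 was at 3.74 and 4.05, a difference of 0.31 in the opposite direction. Both values come from dim probe sets.

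The highest cytosolic differences were mostly of dim probe sets too. Rps27 was below the floor in WT, at 3.24, and at 4.04 in Nlrp6-/-, at least 1.71-fold higher. A brighter probe set shared with Rps27rt gave Rps27 levels of 10.98 and 10.95, a difference of -0.03. Rpl6 was at 2.97 in WT and 3.66 in Nlrp6-/-, also below the WT floor, and Rpl34 at 3.44 and 3.96 (0.52). For Rpl34, a probe set shared with a pseudogene was at 10.72 and 10.87.

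Rps3a1 was the one bright cytosolic gene with a difference near 1.5-fold, at 9.69 in WT and 10.21 in Nlrp6-/- (0.52). That probe set lay in the array's numbering among genes of another chromosome. The other probe set of Rps3a1 was below both floors, at 1.85 and 1.70. Rps27l, a paralogue of Rps27 that p53 induces, was at 5.09 and 5.57 (0.48). The parent gene and the paralogue thus cannot be ordered from probe sets of such different brightness.

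The other paralogues chosen by name were dim. Rpl6l, a member by its symbol that was not among them, was brighter, at 7.86 in WT and 7.91 in Nlrp6-/-. Rpl3l, the striated muscle form of Rpl3, was at 2.58 in WT and 2.51 in Nlrp6-/-. Rpl10l, used in the testis, was at 2.30 and 2.31, and Rpl39l, also of the testis, at 3.13 and 2.65. All 3 were below both floors, while Rpl3 was above them and Rpl39, at 3.68 and 3.72, only just. Rpl22l1 was at 3.65 and 3.63 and Rpl22 at 4.14 and 4.26. Rpl7l1 was at 3.64 and 3.63 where Rpl7 was at 9.07 and 9.12. Rps4l was at 4.92 and 4.96 where Rps4x was at 9.94 and 10.07.

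Several cytosolic genes that cells use throughout the body were below the floor. Besides Rpl3l, Rpl10l and Rpl39l, the members below the floor on both arrays were Rps14, Rps15, Rps16, Rpl27a, Rpl30, Rpl32l, Rpl37 and Rplp2, 11 in all. Rps15 was at 3.13 in WT and 2.16 in Nlrp6-/-. Rpl27a was at 1.87 and 2.05, the dimmest of the class, followed by Rpl32l at 1.95 and 2.17 and Rplp2, a stalk protein, at 2.35 and 2.27. For Rps16 a probe set shared with a pseudogene was at 10.95 and 10.99, for Rpl30 one shared with Gm12191 was at 10.84 and 10.89, and for Rpl27a one shared with Gm13981 at 10.26 and 10.48. In 8 cytosolic genes a probe set of several symbols was brighter than the single-symbol one by over 2. No mitochondrial gene had such a gap.

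Many copies of cytosolic ribosomal protein genes lie scattered over the mouse genome as processed pseudogenes, and probe sets can cross-hybridise to them. For 17 of the 67 cytosolic members, or 25.4%, the brightest probe set lay in the array's numbering among genes of another chromosome, and for a further 5 the neighbours were mixed. The same held for 1 and 4 of the 71 mitochondrial members, and 0.307% of all genes lay among another chromosome's genes. The 17 had levels with a median of 10.1 in WT and 10.2 in Nlrp6-/- and a median difference of 0.004. The part of such copies in the levels of the cytosolic class was not tested.

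Using only probe sets placed among genes of their own chromosome, a choice made after seeing the data, the cytosolic median was 0.05 and 5 cytosolic members were at least 1.5-fold higher. These were Rps27 with Rps26 (6.49 in WT and 7.22 in Nlrp6-/-), Rps24 (5.80 and 6.52), Rplp0 and Rpl7a (4.11 and 4.70). The brighter probe sets of Rps26 and Rps24 were at 9.02 and 9.51 in WT and at 9.08 and 9.64 in Nlrp6-/-. So for these genes the dimmer probe set showed a difference that the brighter one did not. The mitochondrial median was then 0.29, with 11 members at least 1.5-fold higher.

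Where a member had several probe sets above both floors, they could be compared. In 19 cytosolic genes the differences of the probe sets spread by a median of 0.12 and at most 0.84, and 6 genes spread by 1.5-fold or more. These were Rplp0, Rpl41, Rps26, Rps28, Rpl7a and Rps24, and in each the dimmest probe set above the floors had the highest difference. Rpl41, for example, had a probe set at 4.16 in WT and 4.89 in Nlrp6-/- beside 4 others with differences from -0.08 to 0.14. For Rps28 the dim probe set was at 3.26 and 3.80 and the bright one at 9.99 and 9.89. In 6 mitochondrial genes the median spread was 0.19 and the largest, of Mrpl10, 0.77. Differences of single members are therefore to be read with this spread in view.

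Some members had no single-symbol probe set. Through probe sets of several symbols, 7 further mitochondrial genes were seen, and all 7 were higher in Nlrp6-/-, by 0.08 to 0.54 with a median of 0.33. They were Mrpl30, Mrpl33, Mrpl41, Mrpl43, Mrpl44, Mrpl53 and Mrps6, with Mrpl43 (probe set shared with Twnk) at 4.43 in WT and 4.97 in Nlrp6-/-. The same route gave 12 further cytosolic genes, 7 of them higher, with a median of 0.04. For both counts, the share of higher genes among all genes above the floor was 51.6%. The differences of the 12 cytosolic genes ran from -0.38, of Rpl24 at 6.97 and 6.58, to 0.35, of Rpl12 at 9.08 and 9.43.

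Ribosomal proteins that go by other symbols gave little more. Fau, which encodes the small-subunit protein eS30 in fusion with a ubiquitin-like domain, was at 10.69 in WT and 10.54 in Nlrp6-/-. Dap3, a GTP-binding small-subunit protein of the mitochondrial ribosome, was at 4.60 and 4.68, Gadd45gip1, of its large subunit, at 3.75 and 3.88, and Ptcd3, of its small subunit, at 4.08 and 3.89. Their differences lay below the median of the mitochondrial class.

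**Figure D3:**
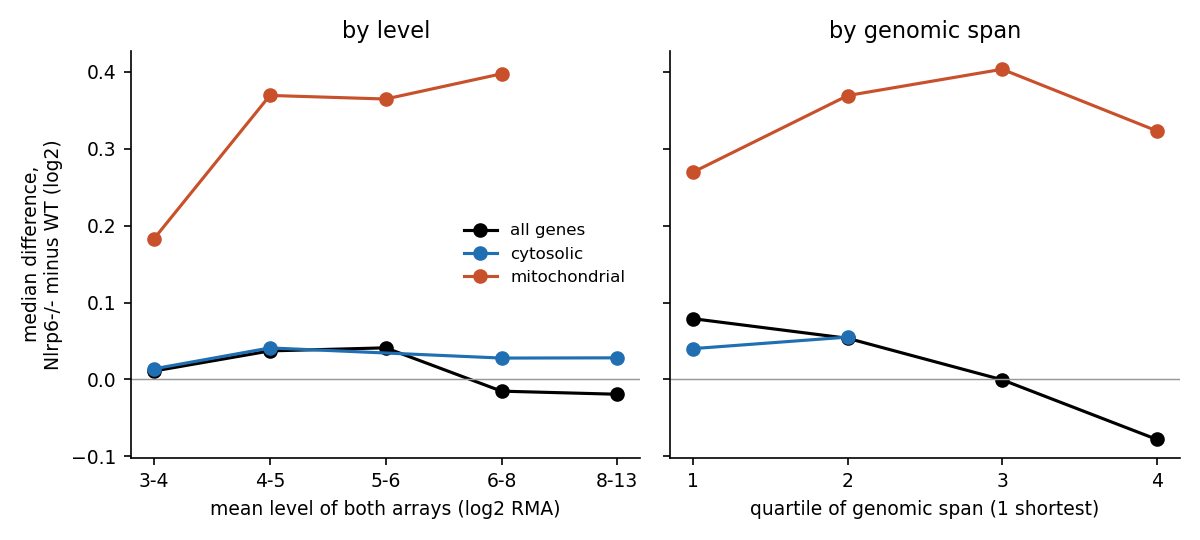
Median difference (log2, Nlrp6-/- minus WT) of all genes, cytosolic and mitochondrial ribosomal protein genes above the floor, by mean level (left) and by quartile of genomic span (right); points with fewer than 3 genes are left out. The mitochondrial medians run from 0.18 to 0.40 and lie above those of all genes in every bin shown.

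Values within ranges of level are given for both classes. Among genes with a mean level from 4 to 5, the 29 mitochondrial members had a median difference of 0.37 and all 29 were higher, where 54.2% of the 2007 genes of that range were, with a median of 0.04. From 5 to 6 the 12 members had a median of 0.36 against 0.04, and from 6 to 8 the 8 members had 0.40 against -0.02. From 3 to 4 the 14 members had 0.18 against 0.01. The cytosolic members in these ranges had medians of 0.04 over 3 genes from 4 to 5, 0.29 over 2 genes from 5 to 6, 0.03 over 8 genes from 6 to 8 and 0.01 over 10 genes from 3 to 4. Few cytosolic members share the middle levels. From 5 to 6 the class medians were close, but the cytosolic one rests on 2 genes, Rps23 (0.10) and Rps27l (0.48). Most cytosolic members lay from 8 to 13, where 33 had a median of 0.03 against -0.02 for all genes. In that range the 1 mitochondrial member differed by 0.55.

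Gene length moved with the differences of all genes. Over genes above the floor, in the quartile with the shortest genomic span (up to 7.82 kb) the median was 0.08 and 60.0% were higher in Nlrp6-/-, and in the quartile with the longest span the median was -0.08 and 39.9% were higher. Ribosomal protein genes are short: 52 of the 56 cytosolic and 34 of the 64 mitochondrial members were in the shortest quartile. There the mitochondrial median was 0.27 and the cytosolic 0.04, and in the next quartile, over 23 mitochondrial members, it was 0.37 against 0.05 for all genes. The part of gene length in the class difference was not tested further.

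Genes that build or assist the ribosomes were set beside the classes, from lists chosen for the pathway. Translation factors of the cytosol were centred near 0: over 29 initiation factors the median was -0.05, with none 1.5-fold apart. Eif4a1, the helicase of cap-dependent initiation, had levels of 8.91 in WT and 8.34 in Nlrp6-/- (-0.57), and Eif3b, of the eIF3 complex, was at 6.21 and 5.82. Eif3e, of the same complex, was at 6.82 and 7.32. Eif2b4 was below the floor in WT, at 2.75, and at 3.40 in Nlrp6-/-. Over 12 elongation and termination factors the median was 0.02, from Eef2, the translocase, at 9.86 and 9.52 (-0.33) to Eef1b2, an exchange factor, at 9.17 and 9.41 (0.24). Next to these ends were Eif5a at 5.68 and 5.57 and Eef1e1 at 3.84 and 4.05.

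Cytosolic tRNA synthetases, which charge tRNAs with amino acids, had a median of -0.04 over 16 genes. At least 1.5-fold lower were 2, or 12.5%, against 3.05% of all genes. Wars, for tryptophan, had levels of 7.56 in WT and 6.64 in Nlrp6-/- (-0.92), and Cars, for cysteine, was at 6.68 and 5.90 (-0.78). The highest, Farsb, was at 3.64 and 4.10 and Rars at 6.42 and 6.71.

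Ribosome biogenesis genes, which process rRNA and assemble subunits in the nucleolus, had a median of 0.13 over 37 genes, with 22 higher and 5 at least 1.5-fold higher. These are 59.5% and 13.5% of the list, beside 51.6% and 6.21% of all genes. Imp3, of the small-subunit processome, was at 6.19 in WT and 7.22 in Nlrp6-/- (1.03). Ltv1, a chaperone of the small subunit, was at 4.53 and 5.47 (0.95), and Nmd3, the export adaptor of the large subunit, at 6.96 and 7.75 (0.80). Nop14 and Gnl3 were higher by 0.70 and 0.62. The lowest were Rrs1 at 5.19 and 4.73 and Nat10 at 4.07 and 3.71.

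RNA polymerase I and its factors, which make rRNA, had a median of -0.06 over 9 genes. They ran from Rrn3 at 4.90 in WT and 4.44 in Nlrp6-/- to Znrd1 at 5.80 and 6.45. Znrd1 alone was at least 1.5-fold higher, 11.1% of the list beside 6.21% of all genes. Taf1d was at 10.31 and 9.94 and Taf1b, of the selectivity factor, at 4.45 and 5.01. Regulators of mTOR and TOP messages had a median of 0.11 over 16 genes. Myc, which drives ribosome production, was at 5.19 and 5.78 (0.59), just past 1.5-fold. It was the only call of this list, 6.25% beside 6.21% of all genes. Eif4ebp1, a target of mTOR, was at 6.05 and 6.50. Eif4ebp2 was at 6.71 and 6.37, and Rptor, the raptor subunit of mTORC1, at 4.55 and 4.32.

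Several RNAs that host small nucleolar RNAs are also known to begin with TOP tracts but encode no abundant protein. All 8 measured RNAs of this list were higher in Nlrp6-/-, their median difference was 0.67, and 4 were at least 1.5-fold higher. These are 100% and 50% of the measured list, beside 51.6% and 6.21% of all genes. Snhg6 was at 7.06 in WT and 8.26 in Nlrp6-/- (1.20), Snhg5 at 4.39 and 5.31 (0.92), Zfas1 at 8.23 and 9.11 (0.88) and Snhg12 at 5.23 and 6.01 (0.78). The lowest differences were of Snhg4, at 4.98 and 5.11, and Snhg3, at 4.59 and 4.96. The cytosolic ribosomal protein genes, known for the same tract, had a median of 0.04.

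On the mitochondrial side, the lists that serve the ribosome had medians closer to 0 than its proteins. Translation factors had a median of 0.07 over 8 genes, tRNA synthetases 0.06 over 8 and assembly factors 0.11 over 12. By any amount 5, 5 and 10 of these were higher, which is 83.3% of the assembly factors, against 51.6% of all genes. The lists are dim, with 5, 8 and 7 further genes below both floors. From level 3 to 4 the mitochondrial ribosomal proteins themselves had a median of 0.18. Lrpprc, which stabilises mitochondrial messages, had levels of 4.41 in WT and 4.06 in Nlrp6-/- (-0.36), and Mtfmt, which formylates the initiator tRNA, was at 4.29 and 4.01. Gfm2, which acts in ribosome recycling, was at 3.42 and 3.66. Mtrf1l was below the floor in WT, at 3.11, and at 3.47 in Nlrp6-/-, a bound of 0.21. Yars2, the mitochondrial tyrosine synthetase, was at 4.02 and 4.44, and Hars2, for histidine, at 3.27 and 3.10, the latter below the floor. Of the assembly factors Mterf3 was at 5.04 and 5.66 (0.63), and Ddx28 at 3.98 and 4.48. Mterf3 alone was at least 1.5-fold higher, 8.33% of the list beside 6.21% of all genes. Mrm2, an rRNA methyltransferase, was at 3.26 and 2.84, the latter below the floor, and Dhx30 at 3.76 and 3.68.

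Genes of mitochondrial DNA and transcription had a median of 0.20 over 11 genes, with none 1.5-fold apart. Polrmt, the mitochondrial RNA polymerase, was at 4.22 in WT and 3.91 in Nlrp6-/- (-0.32). Nrf1 was at 5.51 and 5.34, and Gabpa, of the factor that binds the ETS word, at 6.61 and 7.09 (0.48). Polg2, a subunit of the DNA polymerase, was at 4.95 and 5.48 (0.52).

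Respiratory chain subunits had a median of 0.31 over 66 genes, with 53 (80.3%) higher and 10 (15.2%) at least 1.5-fold higher, close to the median of 0.32 of the mitochondrial ribosomal proteins. In that list Ndufa3 and Ndufa4 were at 8.06 and 8.24 in WT and at 8.82 and 8.97 in Nlrp6-/-. Atp5l, of the ATP synthase, was at 10.65 and 10.29 (-0.36), and Cox7c at 5.42 and 5.18.

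**Figure D4:**
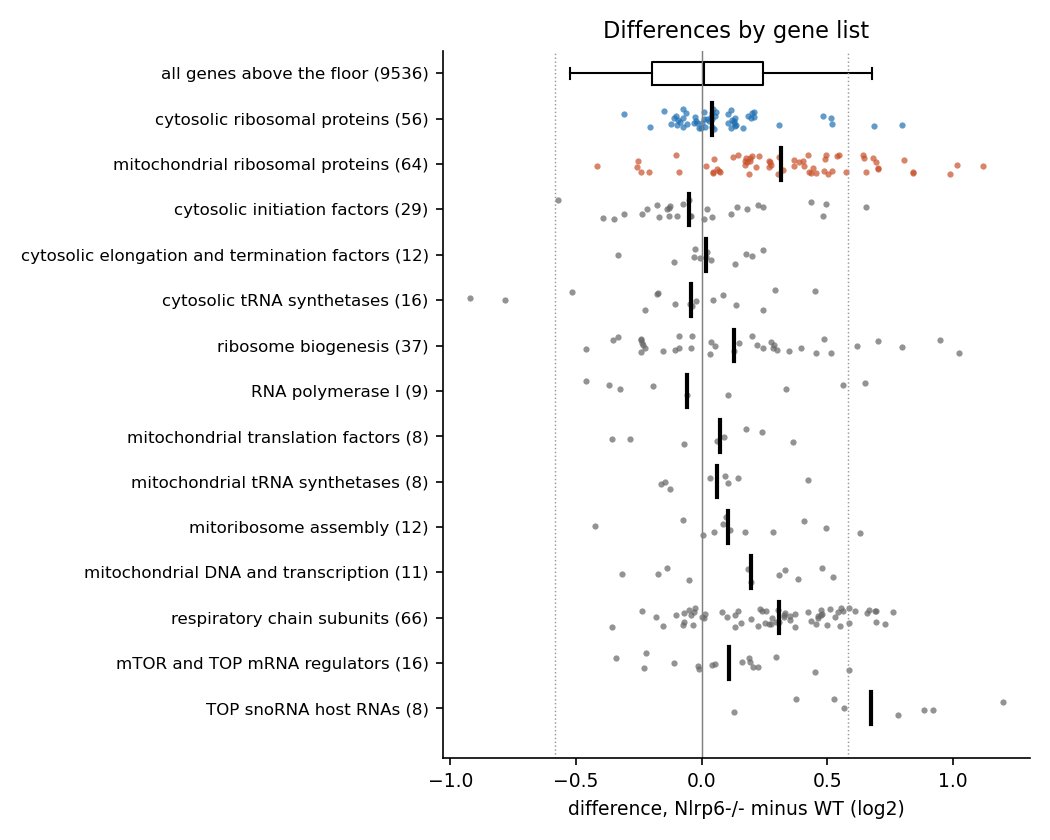
Difference (log2, Nlrp6-/- minus WT) of each measured gene, 1 point per gene, by list, with a bar at the list's median and the number of genes in brackets; the box for all genes spans the quartiles with whiskers from the 5th to the 95th percentile, and dotted lines mark 1.5-fold. Mitochondrial ribosomal proteins (median 0.32) and respiratory chain subunits (0.31) lie to the right of the cytosolic ribosomal proteins (0.04) and the mitochondrial translation factors (0.07).

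Markers of several other cell types had higher summed levels in Nlrp6-/-, those of dendritic cells and monocytes lower ones. A marker that passed the floor in Nlrp6-/- alone had to be higher there, so such markers are counted separately, and their WT part of a sum is background. Sums of linear levels cover all genes of a list with a single-symbol probe set, also those below the floor. They are given for WT and Nlrp6-/- in turn. Epithelial markers, with 16 of 20 above the floor, 12 of them on both arrays and 4 in Nlrp6-/- alone, summed to 378 and 820, with Elf3, Fabp2, Krt20 and Slc26a3 below the floor. Plasma and B cell markers, 9 of 12 above the floor, 8 of them on both arrays, summed to 1038 and 1732, with Cd22, Ms4a1 and Pax5 below the floor. Neutrophil markers, 8 of 14 above the floor, 6 of them on both arrays and 2 in Nlrp6-/- alone, summed to 777 and 1053, with Camp, Elane, Ltf, Mmp9, Mpo and Ngp below the floor.

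Stromal and endothelial markers, 13 of 14 above the floor, summed to 777 and 1369, with Vwf below it. Of the 13, 10 were higher (76.9%), where 51.6% of all genes were. Pancreatic acinar genes, 5 of 10 above the floor but 4 of these in Nlrp6-/- alone, summed to 71.5 and 191, with Amy2b, Cel, Cela1, Cela3b and Prss2 below it. Try4, the one on both arrays, was at 4.03 and 4.79. T and NK markers, 9 of 12 above the floor, 7 of them on both arrays, were mixed and summed to 538 and 574, with Cd4, Klrb1c and Ncr1 below it. Dendritic cell markers, 3 of 9 above the floor and 1 of these higher (33.3%), summed to 388 and 356, with Batf3, Flt3, Itgae, Siglech, Xcr1 and Zbtb46 below it. Monocyte markers, all 13 above the floor and 7 higher (53.8%, near the share of all genes), summed to 8651 and 8240. Their median difference was 0.07, opposite in sign to the change of the sum. At least 1.5-fold higher were 2 of them (15.4%), against 6.21% of all genes, and 0 were lower by as much. The sum follows bright genes such as Cd14, at 10.78 in WT and 10.56 in Nlrp6-/-.

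The mitochondrial ribosomal protein genes, those below the floor included, summed to 2410 in WT and 3133 in Nlrp6-/- on the same linear scale. The cytosolic summed to 41858 and 43304. Every cell type uses these genes, and the part of other cells in the difference was not tested. In such a sorted bulk sample, a changed share of cells and a changed amount of RNA per cell cannot be told apart.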

How the data were processed

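Per the labels' protocols, the authors amplified 10 ng of RNA, hybridised it to Affymetrix Mouse Gene 2.1 ST arrays, scanned with Gene Atlas software 1.0.4.267 and computed robust multiarray average (RMA) values with the oligo package in R 2.15.1. The deposited values are log2 RMA levels of 41345 probe sets on 2 arrays, whose medians were 2.87 (WT) and 2.84 (Nlrp6-/-). RMA equalises the distributions, so a shift of all genes cannot be seen. The set of arrays that entered the normalization is not stated in the labels.

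Probe sets were named from the platform annotation: 23521 had 1 symbol, 1814 several and 16010 none. The genotype label gave 1 array a group. For counts past a threshold, a gene below a floor on 1 array was taken at its bound, the other level against the floor, while medians and counts of any difference used the measured levels. Thresholds were 1.5-fold and 2-fold. The place of a probe set was read from the RefSeq chromosomes (GRCm38.p6) of the 10 named neighbours on each side, with a majority of 60%. All 138 members had a RefSeq chromosome.

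Members, lists and markers were chosen with earlier results of these data known. Named genes were, in each class, the 5 highest and 5 lowest differences above the floor, all at least 1.5-fold apart, the 5 brightest, the 3 dimmest, those below both floors, named paralogues, genes under other symbols, and those whose probe sets disagreed by 1.5-fold, and the 2 highest and 2 lowest of each list of translation or mitochondrial genes. Other genes were chosen after their values were seen. Scripts ran in Python 3.11.15 with pandas 2.3.3 and were tested on simulated data. Alternatives were other normalizations, floors, probe set rules, memberships and thresholds.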

Additional observations from a re-analysis of the deposited data

How the results depend on the processing

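The mitochondrial median difference stayed between 0.28 and 0.49 over 13 alternatives, the cytosolic between 0.04 and 0.09, and the gap between them between 0.22 and 0.45. With a floor that 99% of the receptors did not reach (5.08 in WT and 4.89 in Nlrp6-/-), where fewer members remain, the mitochondrial median was 0.49, the gap 0.45, and the counts at least 1.5-fold higher were 3 mitochondrial and 0 cytosolic. With probe sets averaged within each gene the gap was 0.22. The cytosolic count of 1 was 0 with the floor on both arrays and with probe sets of several symbols added, 2 with no floor (then with 1 lower), and 5 with own-chromosome probe sets only. At a 2-fold threshold 2 mitochondrial and 0 cytosolic members were higher, and at a lower threshold of 0.32 on the log2 scale 30 and 5, with 1 mitochondrial member lower.

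Among the 13 members at least 1.5-fold apart, many alternatives could not move a value, since they change only which genes are counted. Rps27 reversed to -0.0287 with probe sets of several symbols added. Mrpl10 was at 0.25 with the mean of its probe sets, and Mrpl47 at 0.58 with that mean and at 0.17 with own-chromosome probe sets. The causes of these changes were not tested. No paired analysis was possible because each genotype has 1 array, and for the same reason no replicate could be left out. The single array limits precision, and dim probe sets near the floor limit most mitochondrial members.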
